A study of Mus musculus with 4 samples.

Results

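Osteoclasts, the cells that resorb bone, form from cells of the monocyte lineage under the control of neighbouring stromal cells. The ligand RANKL, encoded by Tnfsf11, binds its receptor RANK, encoded by Tnfrsf11a, on osteoclast precursors, and osteoprotegerin, a secreted decoy receptor encoded by Tnfrsf11b, keeps RANKL from reaching RANK. CSF1 and IL-34 are both ligands of the CSF1 receptor, whose signal keeps these precursors alive and dividing. Downstream, Nfatc1 is the main transcription factor of osteoclast formation, and Ctsk, Acp5 and Mmp9 encode cathepsin K, tartrate-resistant acid phosphatase and a gelatinase that mature osteoclasts use.

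These 9 genes were taken by symbol from the deposited count table of 55487 Ensembl genes and were read in skeletal stem cells of ovariectomized and of sham-operated mice. Each group had 2 libraries, Ovx 1 and 2 from wild-type mice labelled ovariectomy and Sham 1 and 2 from wild-type mice labelled sham. All 4 carried the time 8 weeks, without a statement of whether this is age or time since surgery. By taking away the ovaries and most oestrogen, ovariectomy serves as a standard mouse model of bone loss after menopause. The cells were sorted by flow cytometry from collagenase digests of long bone metaphyses after staining for the blood and vessel antigens CD45, Ter119 and Tie2 and for 6C3, CD51, CD90, CD105 and CD200. The labels do not give the gate or say whether the libraries of a group came from separate mice or pools, and the p-values reflect variation among these libraries that may be technical.

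The libraries held between 18291436 and 23721078 counts, and 1 count was worth between 0.0423 and 0.0519 CPM, the unit used here for counts scaled to library size by TMM. The cartilage collagen Col2a1 stood at 40259 and 36879 CPM in the Ovx libraries and at 73169 and 65394 CPM in the Sham libraries, and the osteoblast factor Sp7 at 131 and 111 CPM in Ovx against 237 and 237 CPM in Sham. The sorted cells thus carried cartilage and bone RNA in every library. The Sham pair was less alike than the Ovx pair, with a Pearson's r of log2 CPM across genes of 0.959 for Ovx and 0.930 for Sham. Genes are not independent replicates.

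Promoter sequence was held for 5 of the 9 genes in the RefSeq table of GRCm38.p6, and those of Tnfsf11, Csf1 and Ctsk are shown, since they set a ligand that did not pass the test beside a ligand and a protease that rose together. Each run is 260 bases, from 250 before the annotated start to 10 after it, 5′ to 3′ on the gene's own strand. The windows are chr14:78308034-78308293 (minus strand, Tnfsf11), chr3:107760460-107760719 (minus strand, Csf1) and chr3:95498960-95499219 (plus strand, Ctsk). Capitals mark matches to the searched motifs.
Tnfsf11: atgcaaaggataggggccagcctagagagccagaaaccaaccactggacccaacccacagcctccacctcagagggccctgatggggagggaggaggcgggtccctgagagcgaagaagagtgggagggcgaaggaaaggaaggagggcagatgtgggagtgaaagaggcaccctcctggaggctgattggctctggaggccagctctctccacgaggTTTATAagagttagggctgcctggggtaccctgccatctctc
Csf1: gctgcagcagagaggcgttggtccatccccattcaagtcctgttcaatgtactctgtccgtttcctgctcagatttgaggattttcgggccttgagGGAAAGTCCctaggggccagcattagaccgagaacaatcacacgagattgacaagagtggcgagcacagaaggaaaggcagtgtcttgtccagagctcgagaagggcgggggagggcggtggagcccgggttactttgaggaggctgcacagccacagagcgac
Ctsk: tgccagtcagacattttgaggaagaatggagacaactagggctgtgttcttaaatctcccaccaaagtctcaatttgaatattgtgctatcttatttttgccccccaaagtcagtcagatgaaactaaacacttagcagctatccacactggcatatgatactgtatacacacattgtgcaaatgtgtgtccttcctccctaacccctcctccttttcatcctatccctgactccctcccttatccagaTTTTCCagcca

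Motifs were searched on both strands of the full 300-base windows, which end 50 bases after the start. The patterns were TGANTCA for AP-1, GGANTTTCC for NF-kB, the oestrogen response element core AGGTCA, the NFAT pattern GGAAAA, the vitamin D response element core GGTTCA, the cAMP response element TGACGTCA and the TATA box TATAAA. The NF-kB and NFAT patterns could share bases but did not do so in these windows. Tnfsf11 held a TATA box match on the opposite strand, beginning 32 bases before the start, and a vitamin D core beginning at base 44 after it, outside the bases shown. Csf1 held the NF-kB match, on the opposite strand and beginning 154 bases before the start. Ctsk held an NFAT match across its RefSeq start. For Ctsk, the bases shown end at 95499219, before the gene start of 95499256 that is given below. Over 32851 such promoters the NF-kB pattern was present in 1.25%, the NFAT pattern in 23.4%, the TATA box in 13.6%, the vitamin D core in 10.4%, the oestrogen core in 16.3%, AP-1 in 7.81% and the cAMP element in 1.79%. A match describes these letters and is not a binding site.

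After ovariectomy the osteoprotegerin gene Tnfrsf11b fell 1.74-fold, while the RANKL gene Tnfsf11 did not pass the test. Csf1 rose 3.17-fold. Of the effector genes, Ctsk rose 2.03-fold, the transcription factor Nfatc1 rose 1.63-fold, and Mmp9 fell 3.72-fold. By edgeR's quasi-likelihood test, adjusted over 17120 genes, 3 members were higher, 2 lower and 4 not called at an adjusted p under 0.05. Of all genes tested, 4.18% were called, 2.98% higher and 1.20% lower. The median log2 fold change of the 9 was 0.70, against -0.02 for all genes tested. In 8 of the 9 the libraries of one group lay wholly to one side of the other, as they did in 49.3% of all genes tested. Every member passed the filter on low counts, Tnfrsf11a only just. These calls rest on both Ovx libraries. Without Ovx 1 or without Ovx 2, edgeR called 0 genes of any kind, with 1788 and 1618 at an unadjusted p under 0.05, and the 5 member calls were lost with their signs kept.

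**Figure D1:**
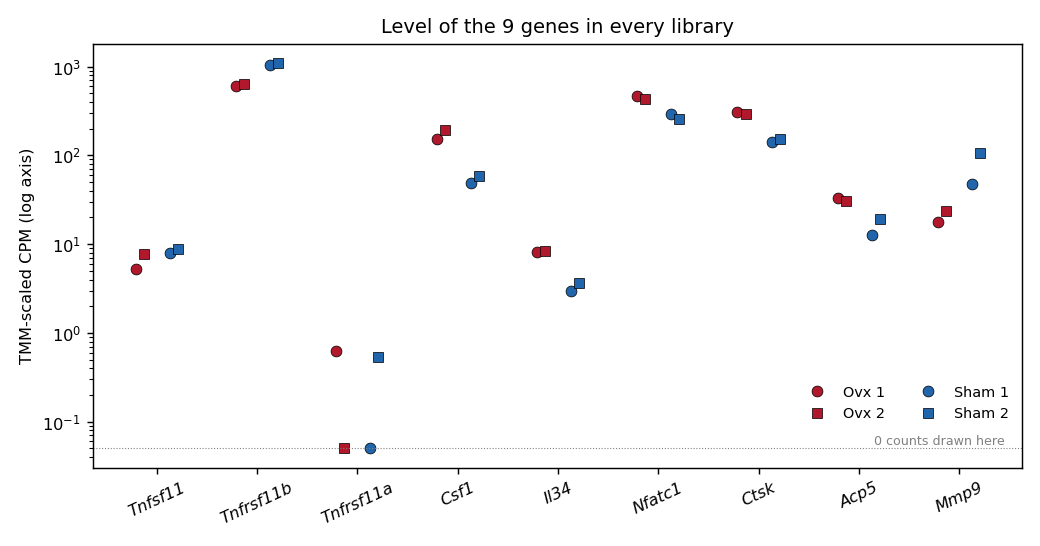
TMM-scaled CPM on a log axis of the 9 genes in each Ovx library (red) and Sham library (blue), with circles for replicate 1 and squares for replicate 2. Values are not divided by gene length. Csf1, Il34, Nfatc1, Ctsk and Acp5 were higher in both Ovx libraries than in either Sham library, Tnfsf11, Tnfrsf11b and Mmp9 were lower, and Tnfrsf11a had 0 counts in Ovx 2 and Sham 1.

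Tnfsf11 (ENSMUSG00000022015, chromosome 14, 78277445 to 78308043, minus strand, GRCm38), the RANKL gene, was expressed at a low level. It had 124 and 150 counts (5.24 and 7.79 CPM) in Ovx 1 and 2, against 179 and 196 counts (7.98 and 8.73 CPM) in Sham 1 and 2. Both Ovx libraries were below both Sham libraries, but Ovx 2 lay close to Sham 1. The log2 fold change was -0.36 ± 0.32 SE, with a 95% interval from -1.10 to 0.38, and it was not called (edgeR adjusted p = 0.642). It was -0.08 without Ovx 1 and -0.66 without Ovx 2, and uncalled in both.

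Tnfrsf11b (ENSMUSG00000063727, chromosome 15, 54250619 to 54278484, minus strand), the osteoprotegerin gene, was among the most abundant genes of these cells. It stood at 599 and 636 CPM in the Ovx libraries and at 1054 and 1093 CPM in the Sham libraries. The groups were far apart for their spread, with means of 618 ± 26.1 CPM in Ovx and 1074 ± 27.7 CPM in Sham (SD, n = 2 each). The log2 fold change was -0.80 ± 0.10 SE, with an interval from -1.03 to -0.56 (edgeR adjusted p = 0.00775). Per kilobase of exon, Tnfrsf11b ranked 155 and 140 in the Ovx libraries and 88 in both Sham libraries, counting from the highest gene. In bulk samples, fewer cells of a type and less RNA per cell cannot be told apart. Marker genes of other cell types moved in these libraries too and are given below.

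Tnfrsf11a (ENSMUSG00000026321, chromosome 1, 105780718 to 105847981, plus strand), the RANK gene, was close to absent. It had 15 and 0 counts in Ovx 1 and 2 and 0 and 12 counts in Sham 1 and 2. Each group thus held 1 library with some reads and 1 with none, where a count of 0 allows up to 0.156 CPM in Ovx 2 and 0.134 CPM in Sham 1, for counting error only. No direction could be read from it (edgeR adjusted p = 0.972), and its sign turned without Sham 1 (log2 fold change -0.71). Reads of Csf1r, the CSF1 receptor of macrophages and osteoclast precursors, which shares 15.1% of its exon length with another gene, were also split within each group, at 0.972 and 5.51 CPM in Ovx 1 and 2 and at 0.0892 and 8.50 CPM in Sham 1 and 2 (edgeR adjusted p = 0.933).

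The ratio of Tnfsf11 to Tnfrsf11b within a library does not depend on how libraries are scaled. There were 8.75 Tnfsf11 counts per 1000 Tnfrsf11b counts in Ovx 1 (exact binomial 95% interval 7.27 to 10.4) and 12.2 in Ovx 2 (10.4 to 14.4). In Sham 1 there were 7.57 (6.50 to 8.77), and in Sham 2 there were 7.98 (6.90 to 9.19). Both Ovx ratios were above both Sham ratios, but the interval of Ovx 1 overlapped those of Sham 1 and Sham 2. The intervals cover counting error only.

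On the log2 scale the ratio averaged -6.59 ± 0.34 in Ovx and -7.01 ± 0.05 in Sham libraries (SD, n = 2 each), a difference of 0.41, or 1.33-fold. The two-sided exact permutation test gave p = 0.333, the smallest that 2 libraries against 2 allow, so this permutation test cannot pass the threshold. The difference leaned on Ovx 2: it was 0.17 without Ovx 2 and 0.66 without Ovx 1. Tnfsf11 itself did not pass, and the Tnfrsf11b counts were the part of the ratio that changed past the threshold. Even in Ovx 2, osteoprotegerin counts outnumbered RANKL counts by 81.7 to 1, or 64.8 to 1 per kilobase of exon. In Sham 1, where they were most unequal, the figures were 132 to 1 and 105 to 1.

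**Figure D2:**
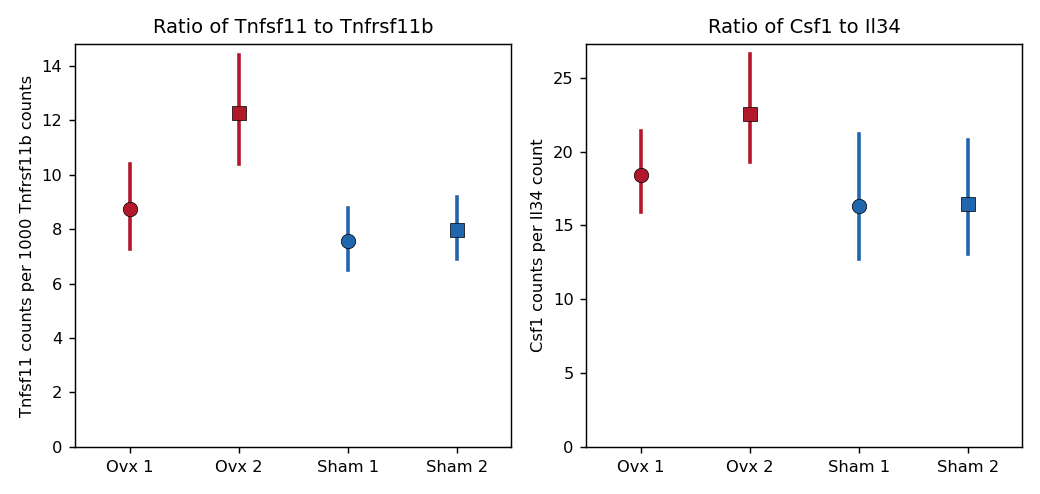
Left, Tnfsf11 counts per 1000 Tnfrsf11b counts, and right, Csf1 counts per Il34 count, in each library, with bars for the exact binomial 95% counting interval. Both ratios were highest in Ovx 2, at 12.2 and 22.6, and both axes start at 0.

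Csf1 (ENSMUSG00000014599, chromosome 3, 107741048 to 107760469, minus strand) had the largest increase of the 9. It stood at 152 and 191 CPM in Ovx 1 and 2, against 48.8 and 59.3 CPM in Sham 1 and 2. The lower Ovx library was well above the higher Sham library. The log2 fold change was 1.66 ± 0.17 SE, with an interval from 1.27 to 2.06 (edgeR adjusted p = 0.00450). Leaving out 1 library gave between 1.50 and 1.84. In rank per kilobase of exon, Csf1 was at 1207 and 907 in the Ovx libraries and at 3346 and 2860 in the Sham libraries.

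Il34 (ENSMUSG00000031750, chromosome 8, 110741829 to 110805924, minus strand), the other ligand of the CSF1 receptor, had a lower level per kilobase of exon than Csf1, at 4.21 and 4.32 CPM in Ovx and 1.53 and 1.84 CPM in Sham libraries, against 28.7 and 36.2 CPM in Ovx and 9.23 and 11.2 CPM in Sham libraries for Csf1. It had 195 and 163 counts (8.24 and 8.47 CPM) in Ovx and 67 and 81 counts (2.99 and 3.61 CPM) in Sham libraries. The groups did not overlap, and the log2 fold change of 1.34 ± 0.32 SE had an interval from 0.58 to 2.10, but it was not called (edgeR adjusted p = 0.0715). Il34 shares 4.95% of its exon length with other annotated genes. It was called higher with scaling by library totals (edgeR adjusted p = 0.0477), with no filter (0.0316) and at a mean of at least 5 CPM (0.0335). Without Sham 2, where the lone Sham library is assumed to vary like the Ovx pair, the log2 fold change was 1.49.

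Csf1 outnumbered Il34 in every library, with 18.4 and 22.6 counts per Il34 count in Ovx 1 and 2 and 16.3 and 16.4 in Sham 1 and 2. Per kilobase of exon the ratio was 6.82 and 8.37 in Ovx and 6.05 and 6.10 in Sham libraries. The difference in the log2 count ratio, Ovx minus Sham, was 0.31, with means of 4.35 ± 0.21 in Ovx and 4.03 ± 0.01 in Sham libraries (SD, n = 2 each). The exact permutation p was 0.333, again the smallest possible. The difference was 0.46 without Ovx 1 and 0.17 without Ovx 2.

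**Figure D3:**
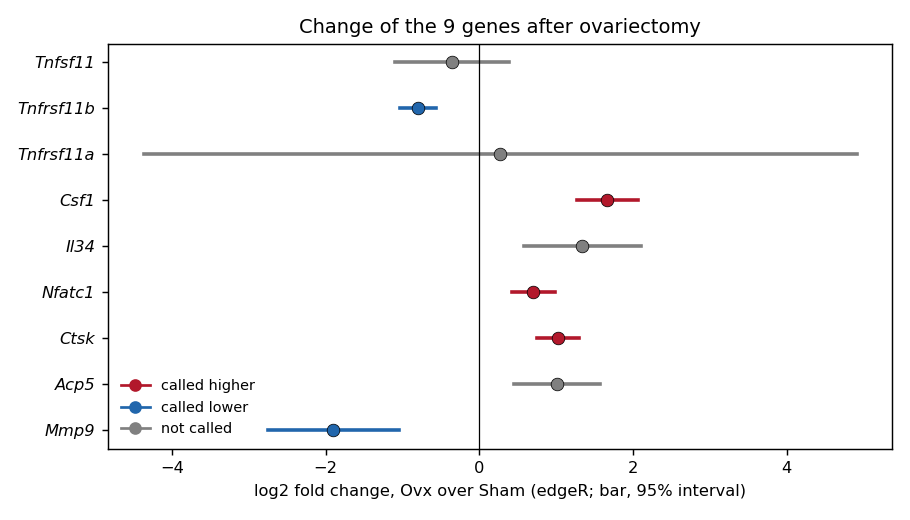
Log2 fold change of each gene, Ovx over Sham, with its 95% interval from the edgeR fit, in red for genes called higher, blue for genes called lower and grey for genes not called. Csf1, Nfatc1 and Ctsk lie above 0, Tnfrsf11b and Mmp9 below it, and Tnfrsf11a has an interval from -4.37 to 4.91.

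Nfatc1 (ENSMUSG00000033016, chromosome 18, 80606205 to 80713071, minus strand), the calcium- and RANK-driven factor that switches on osteoclast genes, was abundant in these cells. It stood at 466 and 432 CPM in Ovx and at 291 and 260 CPM in Sham libraries, without overlap. The log2 fold change was 0.70 ± 0.12 SE (edgeR adjusted p = 0.0197). Its level per kilobase of exon, 62.4 and 57.9 CPM in Ovx and 39.0 and 34.9 CPM in Sham libraries, was far above that of Tnfrsf11a, at 0.106 and 0 CPM in Ovx and 0 and 0.0893 CPM in Sham libraries.

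Ctsk (ENSMUSG00000028111, chromosome 3, 95499256 to 95509362, plus strand), the collagen-cleaving protease of osteoclasts that also marks periosteal stem cells, stood at 307 and 292 CPM in Ovx and at 143 and 152 CPM in Sham libraries. Libraries of a group were close to each other, and the log2 fold change was 1.02 ± 0.11 SE (edgeR adjusted p = 0.00537). Per kilobase of exon, Ctsk was at 203 and 193 CPM in Ovx, near the 213 and 226 CPM of Tnfrsf11b in the same libraries. In Sham libraries it was at 94.8 and 100.5 CPM per kilobase, against 374 and 388 CPM for Tnfrsf11b. Ordered by mean level per kilobase of exon, the Ovx libraries had Tnfrsf11b (219 CPM), Ctsk (198), Nfatc1 (60.1), Csf1 (32.4), Acp5 (15.8), Mmp9 (5.85), Il34 (4.27), Tnfsf11 (2.91) and Tnfrsf11a (0.0530). In the Sham libraries the order was Tnfrsf11b (381 CPM), Ctsk (97.6), Nfatc1 (36.9), Mmp9 (21.7), Csf1 (10.2), Acp5 (7.87), Tnfsf11 (3.74), Il34 (1.68) and Tnfrsf11a (0.0446). Neighbours in these orders did not overlap between their 2 libraries, except Csf1 and Acp5 in Sham, where Acp5 in Sham 2 (9.54 CPM) was above Csf1 in Sham 1 (9.23 CPM).

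Acp5 (ENSMUSG00000001348, chromosome 9, 22126727 to 22135711, minus strand), a phosphatase used as the stain for osteoclasts, had 33.3 and 31.0 CPM in Ovx and 12.6 and 19.4 CPM in Sham libraries. The groups did not overlap, but the Sham pair was spread, and the log2 fold change of 1.01 ± 0.24 SE was not called (edgeR adjusted p = 0.0680). Acp5 shares 6.75% of its exon length with another gene. It was called higher in 7 of the 11 alternative fits, listed in the closing section. Among them was the one without Sham 2 (log2 fold change 1.37), where the lone Sham library is assumed to vary like the Ovx pair.

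Mmp9 (ENSMUSG00000017737, chromosome 2, 164940780 to 164955850, plus strand), a gelatinase of osteoclasts, neutrophils and the vascular front of the growth plate, changed in the other direction. It stood at 17.6 and 23.8 CPM in Ovx and at 47.6 and 106 CPM in Sham libraries. All Ovx values were below all Sham values, but Sham 2 was far above Sham 1. The log2 fold change was -1.90 ± 0.36 SE (edgeR adjusted p = 0.0341), and it was -1.19 without Sham 2 and -2.36 without Sham 1. Sham 2 also had the highest Csf1r level of the 4 libraries and Sham 1 the lowest, given above. The 18 monocyte and macrophage markers together summed lower in Sham, at 75.7 and 90.3 CPM, than in Ovx, at 122 and 166 CPM. Whether the Mmp9 difference goes with other cells in Sham 2 was not tested.

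Of 7 defining genes of osteoclasts, 5 were at or near 0 in all 4 libraries. Calcr (the calcitonin receptor), the fusion genes Dcstamp and Ocstamp, Siglec15 and the co-receptor gene Oscar lay between 0 and 1.27 CPM, and none of them passed the filter. Atp6v0d2, a proton pump subunit, was at 8.46 and 9.19 CPM in Ovx and at 4.01 and 0.178 CPM in Sham libraries (log2 fold change 2.07 ± 0.96 SE, edgeR adjusted p = 0.315). The Sham libraries lay far apart: the log2 fold change was 5.59 without Sham 1 and 1.15 without Sham 2. In each of these 2 fits the lone Sham library is assumed to vary like the Ovx pair. With no filter the log2 fold change was 2.08 and called higher (edgeR adjusted p = 0.000165). Itgb3, an integrin subunit also found on other cells, was at 6.30 and 8.15 CPM in Ovx and at 5.26 and 11.1 CPM in Sham libraries (0.889). Summed over these 7 markers, the level was 16.6 and 17.8 CPM in Ovx and 10.3 and 13.1 CPM in Sham libraries. Of the 7, 2 were tested and 0 were called by edgeR, by DESeq2 or by limma-voom, with 0 at an unadjusted p under 0.05. The wider list of 16 resorption genes gave 1 higher and 0 lower of 11 tested. That gene, Car2, a carbonic anhydrase of osteoclasts and of erythroid cells, rose 6.47-fold (edgeR adjusted p = 0.00688). Car1 and Klf1 of the erythroid list were also called higher, Klf1 not by limma-voom (adjusted p = 0.176). Which cells the Car2 reads came from was not tested.

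**Figure D4:**
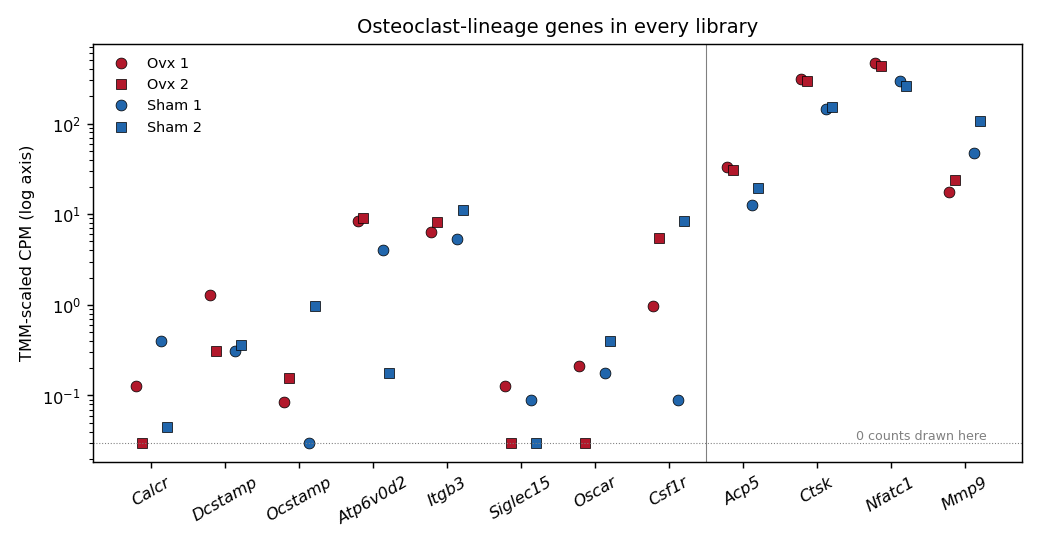
TMM-scaled CPM on a log axis of osteoclast-lineage genes in each Ovx (red) and Sham (blue) library, with members to the right of the line. Values are not divided by gene length. Calcr, Dcstamp, Ocstamp, Siglec15 and Oscar lay at or below 1.27 CPM in every library, and Csf1r differed more within each group than between the groups.

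Other cell types whose genes moved in the same libraries were read from marker lists, without the 9 members. The 18 monocyte and macrophage markers summed to 122 and 166 CPM in Ovx and to 75.7 and 90.3 CPM in Sham libraries, with none of them at 0 in all libraries. Of 15 tested, 0 were called by edgeR or limma-voom and 3 higher by DESeq2, with 6 at an unadjusted p under 0.05. Neutrophil markers, 2 of 13 higher and led by Mpo, summed to 206 and 311 CPM in Ovx and to 155 and 97.5 CPM in Sham libraries. Mmp9 was lower in Ovx, and whether it goes with these markers was not tested. B and T lymphocyte markers (2 of 5 tested higher by edgeR and DESeq2 and 1 by limma-voom, Cd8a at 0) summed to 35.0 and 51.6 CPM in Ovx and to 16.6 and 11.7 CPM in Sham libraries, and erythroid markers (5 of 10 higher by edgeR, 7 by DESeq2 and 3 by limma-voom) to 184 and 258 CPM in Ovx against 56.1 and 41.0 CPM in Sham libraries. Of 10 endothelial markers, 0 were called by edgeR, DESeq2 or limma-voom, with 1 at an unadjusted p under 0.05, and the sums were 54.7 and 84.5 CPM in Ovx and 21.9 and 64.3 CPM in Sham libraries.

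Stromal and skeletal markers moved as well. Of 8 hypertrophic chondrocyte markers 7 fell, led by Col10a1, as did 8 of 9 chondrocyte markers and 5 of 11 osteoblast markers. The lists share genes, so their counts are not independent. Ibsp and Alpl are on both the hypertrophic and the osteoblast list, and Car2 is on the resorption and the erythroid list. Pth1r and Mmp13 of the hypertrophic list are also on lists given below. Hypertrophic markers summed to 10673 and 8823 CPM in Ovx and to 18027 and 20399 CPM in Sham libraries, and chondrocyte markers to 63146 and 57414 CPM in Ovx and 107676 and 99504 CPM in Sham libraries. Osteoblast markers summed to 86824 and 78380 CPM in Ovx and 95563 and 130171 CPM in Sham libraries. The direction matches that of Tnfrsf11b and Mmp9. Of 10 fibroblast and periosteum markers 6 rose, led by Dpt, the direction of Csf1 and Ctsk, while their sums overlapped between groups, at 7115 and 7694 CPM in Ovx and 5327 and 7810 CPM in Sham libraries. Of 10 pericyte and smooth muscle markers 3 rose (588 and 638 CPM in Ovx, 311 and 343 CPM in Sham). Of 7 osteocyte markers 3 rose and 1 fell (1074 and 1049 CPM in Ovx, 544 and 603 CPM in Sham), and of 11 markers of marrow stroma and the adipocyte lineage 2 rose and 1 fell (635 and 737 CPM in Ovx, 790 and 713 CPM in Sham). The direction of Csf1 and Ctsk was also that of the sums of several other lists, higher in both Ovx libraries than in either Sham library. These were the macrophage, neutrophil, lymphocyte, erythroid, osteoclast, pericyte and osteocyte lists. The part of any of these lists in the changes of the 9 genes was not tested.

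**Figure D5:**
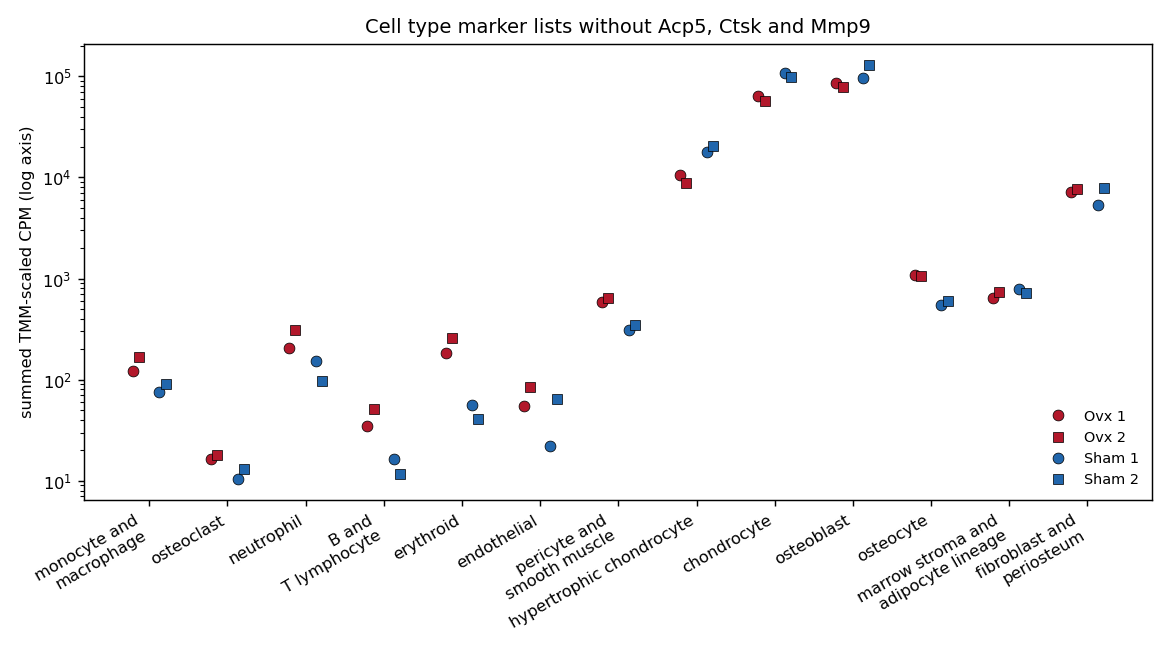
Summed TMM-scaled CPM on a log axis of 13 cell type marker lists in each Ovx (red) and Sham (blue) library, leaving out Acp5, Ctsk and Mmp9. The osteoclast list sums to 16.6 and 17.8 CPM in Ovx and 10.3 and 13.1 CPM in Sham libraries, and the chondrocyte and hypertrophic chondrocyte lists are lower in both Ovx libraries.

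Some genes that act upstream of RANKL and osteoprotegerin in stromal cells changed. Of 30 tested, 2 were higher and 3 lower, where 4.18% of all genes tested were called. By edgeR, 10 of the 30 were at an unadjusted p under 0.05, against 3154 of all 17120. The median log2 fold change of the list was 0.06. The receptors through which parathyroid hormone and vitamin D raise RANKL in stromal cells both fell. Pth1r was at 401 and 305 CPM in Ovx against 625 and 711 CPM in Sham libraries (edgeR adjusted p = 0.0207). Vdr was at 72.6 and 74.0 CPM in Ovx against 107 and 115 CPM in Sham libraries (0.0459), a call lost under scaling by library totals (0.0764) and without Sham 2 (0.0573). Sp7 also fell. Socs3, the feedback inhibitor of the gp130 cytokine receptors, rose 1.70-fold (edgeR adjusted p = 0.00685), and so did Osmr, the oncostatin M receptor, 1.45-fold (0.0484).

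Of 32 tested secreted regulators of osteoclast formation other than the members, 6 were higher and 1 lower, with a median log2 fold change of 0.34, and DESeq2 called 11 higher and 2 lower. The genes that rose act in both directions. Il6, a cytokine that promotes osteoclast formation, was at 48.5 and 41.1 CPM in Ovx against 5.22 and 4.01 CPM in Sham libraries. The chemokine Ccl7 was at 21.4 and 26.1 CPM in Ovx against 2.45 and 2.14 CPM in Sham libraries, and Cxcl1 rose 9.80-fold. Sema3a, a semaphorin that restrains osteoclast formation, was at 45.2 and 55.3 CPM in Ovx against 4.59 and 3.96 CPM in Sham libraries. The edgeR adjusted p of these 4 genes was between 0.000497 and 0.00199. The other 2 that rose were Ccl2 (21.9-fold, edgeR adjusted p = 0.00302) and Cxcl12 (2.54-fold, 0.0382). The gene of the list that fell was Spp1, the matrix protein osteopontin, which shares 18.8% of its exon length with another gene.

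Among the other genes of the pathway, 2 of 27 RANK signal transduction genes were higher and 0 lower, with a median log2 fold change of 0.27. They were the NF-kB subunit Rela, at 276 and 284 CPM in Ovx against 146 and 166 CPM in Sham libraries (edgeR adjusted p = 0.0114), and Fos, an AP-1 subunit needed for osteoclasts, at 7091 and 6911 CPM in Ovx against 5397 and 5143 CPM in Sham libraries (0.0399, and 0.0678 with upper-quartile scaling). Of 10 osteoclast transcription factors and co-stimulatory genes tested, 0 were called by edgeR, with 5 at an unadjusted p under 0.05, and 2 higher and 1 lower by DESeq2 and 2 higher and 0 lower by limma-voom. The gene of that list with the smallest p was Irf8, a repressor of osteoclast formation, at 10.7 and 11.9 CPM in Ovx against 4.91 and 4.41 CPM in Sham libraries (log2 fold change 1.28 ± 0.28 SE, edgeR adjusted p = 0.0535). Irf8 lay close to the threshold and was called higher by DESeq2 (adjusted p = 0.0239), by limma-voom (0.0405) and in every other alternative fit except those with upper-quartile scaling (0.0593), without Ovx 1 (0.386) and without Ovx 2 (0.485). Of 5 other receptors of these ligands, 0 were called by edgeR, DESeq2 or limma-voom, with 1 at an unadjusted p under 0.05. Lgr4, a further receptor of RANKL, was at 11.4 and 6.54 CPM in Ovx and at 12.4 and 8.90 CPM in Sham libraries (edgeR adjusted p = 0.801).

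Of 8 tested proteases and inhibitors that govern the shedding of RANKL and CSF1 from the cell surface, edgeR called 1 higher and 0 lower. By edgeR, 5 of the 8 were at an unadjusted p under 0.05. DESeq2 called 3 higher and 1 lower, and limma-voom 1 higher and 1 lower. Over all genes tested, edgeR called 4.18%. The 1 called higher by edgeR was Timp2, a metalloproteinase inhibitor, at 102 and 88.5 CPM in Ovx against 39.2 and 45.9 CPM in Sham libraries (edgeR adjusted p = 0.00838). Of 27 cathepsins and metalloproteinases beside Ctsk and Mmp9, edgeR called 2 higher and 1 lower, with a median log2 fold change of 0.13. DESeq2 called 5 higher and 2 lower, and limma-voom 3 higher and 1 lower. The lysosomal proteases Ctsb and Ctsl rose 1.64-fold and 2.10-fold, and they share 12.8% and 26.8% of their exon length with other genes. Mmp13, the collagenase of hypertrophic cartilage, fell along with Mmp9, to 502 and 608 CPM in Ovx libraries against 941 and 1002 CPM in Sham libraries (edgeR adjusted p = 0.0154). Of 28 other genes of the TNF and TNF receptor superfamilies, Fas rose (1.86-fold, edgeR adjusted p = 0.0399) and Tnfrsf21 fell (log2 fold change -0.82, edgeR adjusted p = 0.0150). DESeq2 called 3 of the 28 higher and 2 lower, and limma-voom 2 higher and 1 lower.

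The genes most like 3 of the members across the 4 libraries were found by the root mean square distance between centred log2 CPM profiles, among 10085 genes averaging 5 CPM or more. With 4 libraries this is a description of shape. Nearest to Csf1 were Pdgfra, a mesenchymal growth factor receptor (distance 0.0495), Serpinb8 (0.0630) and Dusp14, a phosphatase (0.0721). Pdgfra was at 139 and 170 CPM in Ovx against 47.0 and 57.2 CPM in Sham libraries. Among the nearest to Tnfrsf11b were Fibin (0.0278) and the kinase gene Yes1 (0.0291), and of these Fibin was also called lower (log2 fold change -0.80, edgeR adjusted p = 0.0108). Nearest to Tnfsf11 were Mms19 (0.0149), Zfp827 (0.0439) and Ints5 (0.0448), none of which was called, with edgeR adjusted p between 0.471 and 0.554.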

How the data were processed

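TRIzol RNA was made into SMARTER mRNA libraries, per the labels' protocols. The authors deposited read counts per gene, not normalized, for 4 libraries. The tools were Trim Galore 0.6.6 and featureCounts 2.0.1 and the build GRCm38 (mm10), per the submitters' processing notes. The aligner, the annotation and whether strand was used are not stated there. Therefore reads of genes overlapping on opposite strands cannot be told apart. Symbols, positions and exon lengths came from GENCODE M21 (GRCm38), which matched 55227 of 55487 IDs.

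Genes were filtered with filterByExpr at its defaults (17120 kept), scaled by TMM and tested two-sided with edgeR 4.0.16 (glmQLFit and glmQLFTest, group alone, R 4.3.3), with Benjamini-Hochberg adjustment and a threshold of 0.05. Fold changes are Ovx over Sham, SEs come from the F statistic, and intervals use the t distribution with 2 residual and 5.29 prior degrees of freedom. Levels are TMM-scaled CPM. Comparisons between genes use CPM per kilobase of merged exons. Alternatives used DESeq2 1.42.0 and limma 3.58.1. The test was checked on 3 simulations of 17120 genes, in which few genes were set to change. Over the 3, it called 26.4% of 284 genes with a true absolute log2 fold change of 1 and 63.5% of 288 at 2. Of 47492 unchanged genes it called 0.0442%. A gene not called may therefore still differ. These rates depend on the share of genes that change, and may be other in the real libraries.

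The 9 genes and the 9 pathway and 13 marker lists were chosen with earlier results of these data known. Named besides the 9 members were up to 4 called genes of each list by smallest p, or else the 1 with the smallest p, and the 3 genes most like Tnfsf11, Tnfrsf11b and Csf1. Of these, 1 is not reported here. Calcr, Dcstamp, Ocstamp, Siglec15, Oscar, Itgb3, Csf1r, Lgr4, Osmr, Ccl2, Cxcl12 as a regulator, and Spp1 as a regulator were named after their values were seen.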

Additional observations from a re-analysis of the deposited data

How the results depend on the processing

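Tnfsf11 kept its direction and stayed uncalled in all 11 alternative fits. The calls of Csf1, Ctsk, Nfatc1, Tnfrsf11b and Mmp9 held in all fits except those without Ovx 1 or without Ovx 2, where the lone Ovx library is assumed to vary like the Sham pair. Without Sham 1 or Sham 2, the lone Sham library is likewise assumed to vary like the Ovx pair. Calls in those fits hold nothing of the spread between the Sham libraries. Leaving out 1 library in turn gave log2 fold changes of -0.66 to -0.08 for Tnfsf11, 1.50 to 1.84 for Csf1, 0.98 to 1.08 for Ctsk, 0.64 to 0.79 for Nfatc1, -0.83 to -0.74 for Tnfrsf11b, -2.36 to -1.19 for Mmp9, 0.73 to 1.37 for Acp5, 1.21 to 1.49 for Il34 and -0.71 to 5.84 for Tnfrsf11a, which was reversed without Sham 1 (-0.71) and could not be fitted without Ovx 1 or at a mean of at least 5 CPM. Acp5 was called with scaling by library totals (1.12, adjusted p = 0.0354), the DESeq2 test (1.01, 0.00594), limma-voom (1.04, 0.0294), no filter (1.02, 0.000235), a mean of at least 5 CPM (1.0, 0.0220) and the replicate block (1.04, 0.0282), and Il34 with library totals (1.45), no filter (1.35) and a mean of at least 5 CPM (1.33). The members called higher numbered 5 with library totals, with no filter and at a mean of at least 5 CPM, and 0 to 5 without 1 library, and those called lower 0 to 2. Over all genes, 923 were higher and 483 lower with the DESeq2 test, 1112 and 544 with no filter, 313 lower with limma-voom, 406 lower at a mean of at least 5 CPM, 329 lower with the replicate block, and 0 to 1277 higher and 0 to 558 lower without 1 library. Library totals as the only scaling moved the median gene by 0.11 log2 units and the share of higher calls to 82.2%, against 71.2%. Same-numbered libraries did not deviate together (correlation across genes 0.00429), so the numbers are not taken as pairs. With the replicate block the ratio of Tnfsf11 to Tnfrsf11b differed by 0.21 between the libraries numbered 1 and by 0.62 between those numbered 2, a mean of 0.41. Of 484 list counts under alternatives, 353 stayed within 1.5 times, 79 were larger and 52 smaller. Of 568 refits of named genes, 449 kept their side of the threshold, 102 lost a call and 17 gained one, all with the same sign. At these depths Tnfrsf11a could not be compared between the groups.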
